A study of Mus musculus with 29 samples.

Results

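The 10 genes described here are 9 matrix metalloproteinase genes (Mmp2, Mmp3, Mmp8, Mmp9, Mmp10, Mmp12, Mmp13, Mmp14 and Mmp15) and Timp1, the gene of a secreted metalloproteinase inhibitor. They were taken by gene symbol, and each matched 1 of the 47357 gene identifiers shared by the crypt, tissue and organoid files. RNA was sequenced in 29 mouse libraries of 8 groups, all from the C57BL/6 strain. Isolated epithelial crypts came from mice aged 52 weeks with floxed H2B alleles (crypt controls, n = 4) or of genotype H2BdIEC (n = 4). Tissue came from 4 H2B/p53dIEC mice, numbered 1349, 1323, 1322 and 1319, each giving 1 tumor library and 1 library of adjacent non-tumor tissue, and from 4 H2B/p53flox/flox mice without tumor libraries (tissue controls 1315, 1316, 1320 and 1321). The labels call the tissue of these controls adjacent normal as well, though no tumor library of these mice was used here, so whether they carried tumors is not known. Intestinal organoids, which are epithelial cultures, were H2B/p53flox/flox (controls, titled WT, for which the series text names floxed H2B alone, n = 3), H2BdIEC (n = 3) or H2B/p53dIEC (n = 3). H2B stands for Rnaseh2b, a subunit gene of the enzyme that starts ribonucleotide excision repair, and p53 for the tumor suppressor gene Trp53. The Cre driver, the age of the tissue and organoid donors and whether organoid libraries came from separate mice are not given in the sources used here, so the spread between organoid libraries may be technical.

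Matrix metalloproteinases are zinc-dependent proteases that cut collagens, other matrix proteins and many secreted or membrane proteins. Most are secreted as inactive precursors, while the membrane-type members Mmp14 and Mmp15 are anchored in the cell surface, where Mmp14 activates the Mmp2 precursor. Tissue inhibitors of metalloproteinases, of which Timp1 is one, bind the active site. In the gut most secreted members are known as products of fibroblasts, macrophages and neutrophils rather than of resting epithelium, and several are induced in inflamed or injured mucosa.

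Of the members, 5 lie in one cluster on chromosome 9, and promoters of 3 of these are shown, chosen because they hold both an AP-1 and a TATAAA match. The cluster runs over 427072 bases of GRCm38 and holds 9 protein-coding genes from Mmp13 to Mmp7, of which Mmp13, Mmp12, Mmp3, Mmp10 and Mmp8 are members. RefSeq promoters on GRCm38.p6 matched 8 of the 10 members, with 9 promoters in all. Each promoter was searched in the 250 bases before the start site for the AP-1 motif TGANTCA on both strands, for TATAAA on the forward strand and for the PEA3 motif AGGAAG on both strands, and the 3 motifs do not overlap in the matches shown. AP-1 is the binding motif of the Fos and Jun families. The 100 bases before the start of these 3 genes follow on the plus strand, 5′ to 3′, with AP-1 and TATAAA matches in capitals. The PEA3 match of Mmp13 in this stretch, 62 to 57 bases before the start, is in lower case.
Mmp3, chr9:7445722-7445821: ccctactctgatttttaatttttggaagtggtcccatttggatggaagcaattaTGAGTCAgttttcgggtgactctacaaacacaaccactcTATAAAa
Mmp10, chr9:7502242-7502341: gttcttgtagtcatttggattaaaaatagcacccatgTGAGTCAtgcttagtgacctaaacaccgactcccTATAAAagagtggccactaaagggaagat
Mmp13, chr9:7272414-7272513: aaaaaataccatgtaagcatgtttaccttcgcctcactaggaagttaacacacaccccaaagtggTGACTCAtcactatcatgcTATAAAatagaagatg

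The AP-1 match lay 46 to 40 bases before the start in Mmp3, 63 to 57 bases before it in Mmp10 and 35 to 29 bases before it in Mmp13. Of all 32851 RefSeq promoters, 6.75% held an AP-1 match in 250 bases and 2.73% in the last 100 bases, and TATAAA was found in 7.59% and 3.80%. Mmp12 had an AP-1 match at 1 of its 2 RefSeq starts. Mmp8, Mmp14, Mmp15 and Timp1 had none in these windows. The PEA3 letters, present in 29.5% of all promoters, occurred in those of Mmp3, Mmp8, Mmp12, Mmp13, Mmp14 and Timp1 and not in those of Mmp10 and Mmp15. Mmp2 and Mmp9 had no entry. These matches are letters in a window and were not tested against binding.

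Gene counts per library summed to 15545059 to 25913155 in crypts, 21884287 to 41504298 in tissue and 5774771 to 21386586 in organoids, except 401365 counts in tissue control 1320. Levels are given as CPM, the reads of a gene scaled to a common library size. In control 1320, 3 reads of its total are 7.47 CPM before scaling factors are applied, and 1 read is 2.67 CPM on the scale printed here. Its values for low genes therefore carry little information. Rnaseh2b, the targeted gene, had 6.87 to 14.4 CPM in crypt controls and 2.13 to 2.71 CPM in H2BdIEC crypts. It had 12.8 to 24.1 CPM in tissue controls, 2.49 to 5.42 CPM in adjacent tissue and 2.53 to 6.19 CPM in tumors. In organoids Rnaseh2b was at 14.8 to 18.3 CPM in controls, 4.96 to 7.04 CPM in H2BdIEC and 1.08 to 2.15 CPM in H2B/p53dIEC, where Trp53 was at 9.95 to 11.7 CPM against 98.2 to 115 CPM in controls. Every library labelled with a deletion had less Rnaseh2b than every control of its set.

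Across the 8 groups, all 10 members had their highest mean in tumors (plot of expression by library). The 8 members other than the membrane-type Mmp14 and Mmp15 were near 0 in crypts and organoids and were present in whole tissue. Mmp3 had 0 reads in all 8 crypt and all 9 organoid libraries, which allows up to 0.116 to 0.193 CPM in a crypt library and 0.140 to 0.520 CPM in an organoid library, from 3 reads of the total. Mmp8, Mmp9, Mmp10 and Mmp12 had 0 reads in all 9 organoid libraries. Timp1 reached 0 to 2 reads in crypts and 0 to 6 reads in organoids, and Mmp2 had 1 to 10 reads in crypts and 1 read in 1 organoid library. Crypt libraries had 0 to 26 reads of Mmp9, 1 to 13 reads of Mmp12, 0 to 5 reads of Mmp13, 0 to 4 reads of Mmp10 and 0 to 1 reads of Mmp8. These 8 members did not pass the filter on low counts in crypts or in organoids and have no test there. Mmp13 had 4, 1 and 2 reads in the 3 H2B/p53dIEC organoid libraries and 0 in the other organoid libraries.

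**Figure D1:**
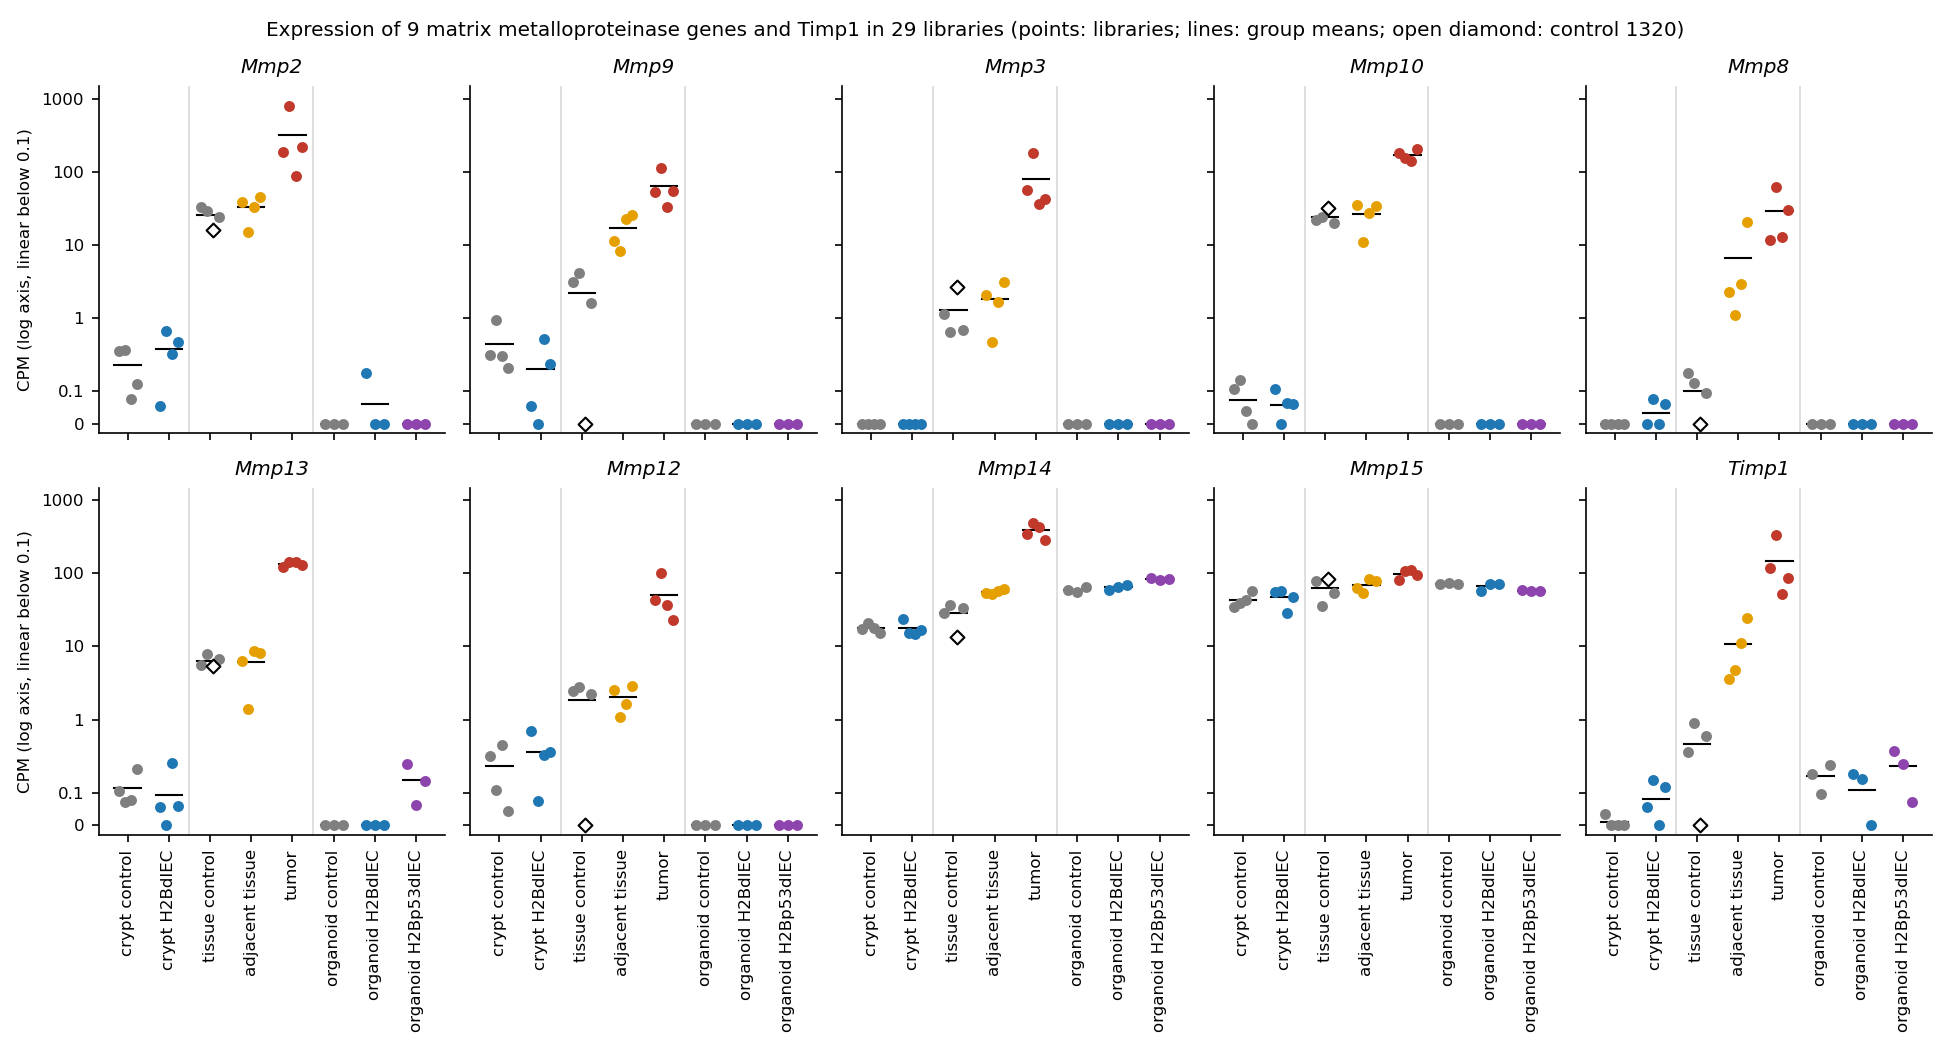
Expression of each gene in every library, in CPM on an axis that is logarithmic above 0.1 and linear below it, for the 8 groups on the horizontal axis. Points are libraries, black lines are group means and the open diamond is tissue control 1320. The tumor mean is the highest for every gene, with single points overlapping for Mmp8 and Mmp15, Mmp14 and Mmp15 are expressed in all groups, and the other 8 genes lie near 0 in crypts and organoids.

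Tumors had more RNA of 9 of the 10 members than the adjacent tissue of the same mice, Mmp15 being the exception, and no member was lower. With mouse as a block, which pairs the libraries, 8 members were called and Mmp8 was not (edgeR adjusted p = 0.0745). The values of single members below come from the fit without this block, except where the block is named. Among all 17666 genes tested in tissue, 23.0% were called higher in tumors than in adjacent tissue at an adjusted p under 0.05, and the median log2 fold change was 3.04 over the 10 members and -0.00 over all genes. In 8 members every tumor library lay above every adjacent library, against 19.6% of all genes. All 10 members were higher in the tumor than in the adjacent tissue of the same mouse in 4 of 4 mice. Whole tissue holds many cell types, so more cells of a type and more RNA per cell cannot be told apart here.

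Against control tissue, tumors had more RNA of all 10 members, where 28.6% of all genes were called higher, and 9 members were separated in all libraries, against 27.5% of all genes. The adjacent tissue of the same mice exceeded control tissue in 3 members, Timp1, Mmp8 and Mmp9, where 0.792% of all genes were called higher. Those 3 and Mmp14 had all adjacent libraries above all control libraries, as did 8.22% of all genes. Among these controls, the shallow library 1320 held 0 reads of Timp1, Mmp8 and Mmp9, which leaves its level of them open. With control 1320 and the adjacent library of mouse 1323 both left out, or with no filter on low counts, 0 members were called between adjacent and control tissue, with edgeR adjusted p of 0.0625 to 0.124 for these 3. Leaving out any single control, or the tumor of mouse 1349, also gave 0 members called. Without control 1321 the edgeR adjusted p was 0.173 for Timp1, 0.201 for Mmp8 and 0.173 for Mmp9. The 3 tissue comparisons share their libraries, so their values stand side by side and are not independent.

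**Figure D2:**
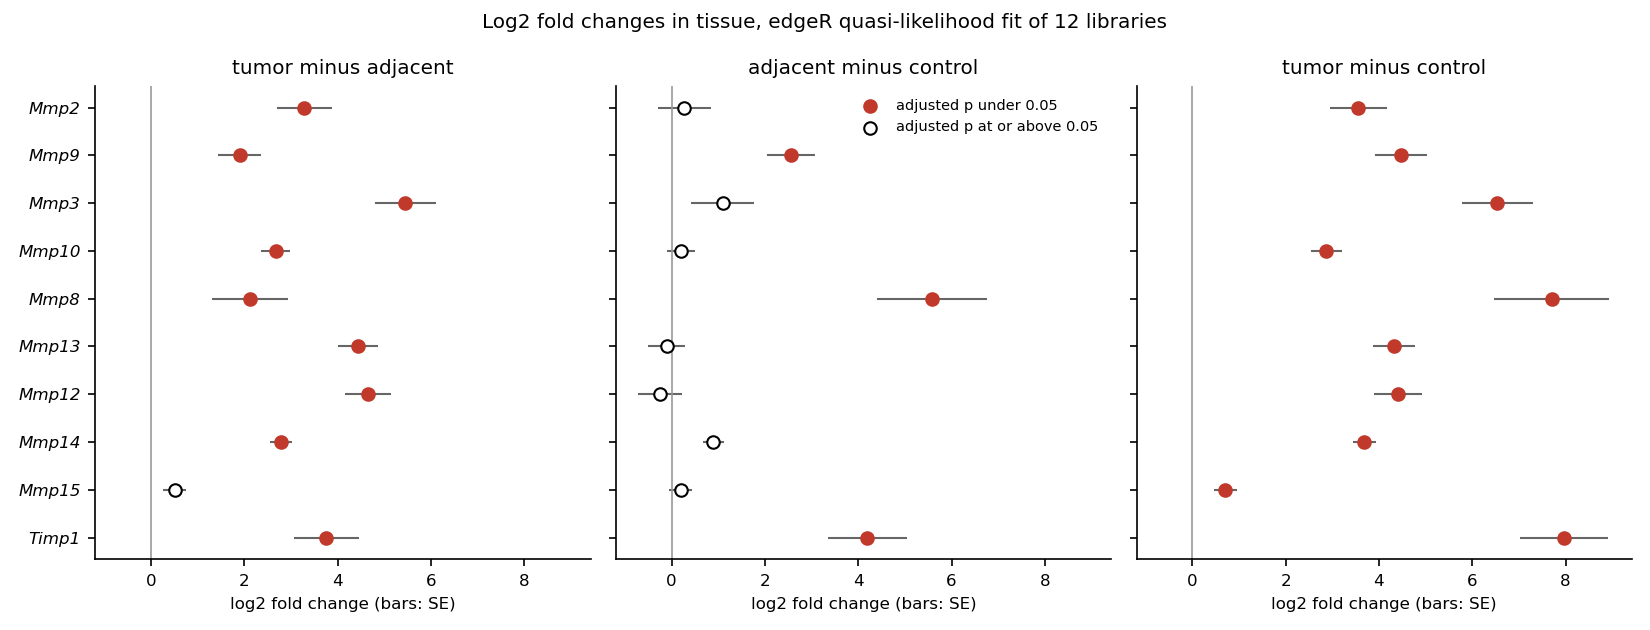
Log2 fold change of each gene in the 3 tissue comparisons, with the SE as a horizontal bar. Filled points have an adjusted p under 0.05 by edgeR. Tumor minus adjacent ranges from 0.51 for Mmp15 to 5.45 for Mmp3, and adjacent minus control is filled for Mmp9, Mmp8 and Timp1.

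The gelatinases Mmp2 and Mmp9 cut denatured collagen and basement membrane collagen. Mmp2 (ENSMUSG00000031740) lies on chromosome 8 from 92827291 to 92853420 of GRCm38, plus strand, with 14 exons after merging its transcripts. Its level in control tissue was 33.6, 29.2, 16.0 and 24.3 CPM in mice 1315, 1316, 1320 and 1321, the third from 6 reads. Adjacent tissue had 38.4, 15.1, 33.0 and 44.8 CPM of Mmp2 in mice 1349, 1323, 1322 and 1319, and the tumors of the same mice had 185, 793, 88.4 and 220 CPM. Adjacent and control values overlapped, all 4 tumors lay above both, and the tumor of mouse 1323 stood far above the other tumors. Mmp2 was higher in tumors than in adjacent tissue by 3.29 ± 0.60 on the log2 scale (edgeR adjusted p = 0.000939) and than in controls by 3.56 ± 0.62 (edgeR adjusted p = 0.000489). Without the tumor of mouse 1323 the first difference was 2.33 (edgeR adjusted p = 0.000622) and the second 2.59 (edgeR adjusted p = 0.000271). Adjacent minus control was 0.27 ± 0.57 (edgeR adjusted p = 0.852).

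Mmp9 (ENSMUSG00000017737; chromosome 2, 164940780 to 164955850, plus strand, 15 merged exons) is the gelatinase stored in neutrophil granules and made by macrophages. Control tissue had 3.14, 4.12, 0 and 1.59 CPM in mice 1315, 1316, 1320 and 1321. The 0 of the shallow library 1320 allows up to 7.47 CPM before scaling factors, from 3 reads of the total. In adjacent tissue Mmp9 reached 11.4, 8.28, 22.4 and 25.3 CPM in mice 1349, 1323, 1322 and 1319, and their tumors had 52.6, 112, 33.1 and 55.5 CPM. The 3 groups formed steps without overlap, tumors highest and controls lowest. Tumors exceeded adjacent tissue by 1.91 ± 0.46 log2 (edgeR adjusted p = 0.00509), and controls by 4.47 ± 0.55 (edgeR adjusted p = 5.08e-05). Adjacent tissue exceeded controls by 2.57 ± 0.52 (edgeR adjusted p = 0.0390). That last call was lost in 9 of 12 removals of 1 library, with log2 values of 2.30 to 2.88 and adjusted p of 0.0231 to 0.173 by edgeR.

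The stromelysins Mmp3 and Mmp10 cut proteoglycans, laminin and fibronectin and activate other precursors. Mmp3 (ENSMUSG00000043613; chromosome 9, 7445822 to 7455975, plus strand, 10 merged exons) is known as a fibroblast product. Its control values were 1.12, 0.643, 2.67 and 0.687 CPM in mice 1315, 1316, 1320 and 1321, of which the third rests on 1 read. Adjacent tissue of mice 1349, 1323, 1322 and 1319 held 2.07, 0.472, 1.66 and 3.08 CPM of Mmp3, and tumors held 56.7, 184, 36.6 and 42.6 CPM. Adjacent and control values overlapped at a low level, and every tumor lay above all of them. Mmp3 had the largest tumor minus adjacent difference of the members, 5.45 ± 0.65 log2 (edgeR adjusted p = 7.13e-05), and 4.63 without the tumor of mouse 1323 (edgeR adjusted p = 4.34e-05). Tumor minus control was 6.54 ± 0.76 (edgeR adjusted p = 3.41e-05), or 5.72 without that tumor (edgeR adjusted p = 1.75e-05), and adjacent minus control was 1.09 ± 0.67 (edgeR adjusted p = 0.425).

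Mmp10 (ENSMUSG00000047562; chromosome 9, 7502352 to 7510240, plus strand, 10 merged exons) is the stromelysin known from wounded and migrating epithelium. Control tissue had 21.95, 24.1, 32.1 and 19.98 CPM in mice 1315, 1316, 1320 and 1321, the third from 12 reads. In adjacent tissue it was at 34.8, 10.8, 27.6 and 33.7 CPM in mice 1349, 1323, 1322 and 1319, and in their tumors at 180, 157, 140 and 206 CPM. Tumor values lay close together and above all others, and adjacent and control values overlapped. The tumor minus adjacent difference was 2.67 ± 0.31 log2 (edgeR adjusted p = 4.69e-05), tumor minus control was 2.88 ± 0.32 (edgeR adjusted p = 2.30e-05), and adjacent minus control was 0.20 ± 0.30 (edgeR adjusted p = 0.777).

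The collagenases Mmp8 and Mmp13 cut fibrillar collagen. Mmp8 (ENSMUSG00000005800; chromosome 9, 7558456 to 7568485, plus strand, 10 merged exons) is the neutrophil collagenase. It was nearly absent from control tissue, with 7, 3, 0 and 3 reads in mice 1315, 1316, 1320 and 1321 (0.179, 0.129, 0 and 0.0937 CPM). Adjacent tissue had 2.24, 1.10, 2.95 and 20.5 CPM in mice 1349, 1323, 1322 and 1319, and tumors had 11.8, 62.0, 12.7 and 29.9 CPM. The adjacent tissue of mouse 1319 stood above the tumors of mice 1349 and 1322, so the ranges of tumor and adjacent tissue overlapped, while both lay above all controls. The 0 of control 1320 allows up to 7.47 CPM before scaling factors, however, above the adjacent values of mice 1349, 1323 and 1322. Tumor minus adjacent was 2.12 ± 0.81 log2 (edgeR adjusted p = 0.0487). With mouse as a block the same difference was 2.499 (edgeR adjusted p = 0.0745), and the call was lost in 9 of 12 removals of 1 library, with log2 values from 1.44 without the tumor of mouse 1323 to 3.77 without the adjacent tissue of mouse 1319.

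Mmp8 was higher in adjacent tissue than in controls by 5.58 ± 1.18 log2 (edgeR adjusted p = 0.0481), a call that 7 of 12 removals of 1 library lost, with adjusted p of 0.0351 to 0.201 by edgeR. Without the adjacent tissue of mouse 1319 the difference was 3.92 (edgeR adjusted p = 0.0474). Tumors exceeded controls by 7.70 ± 1.24 log2 (edgeR adjusted p = 0.000295), and by 7.02 without the tumor of mouse 1323 (edgeR adjusted p = 0.00059).

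Mmp13 (ENSMUSG00000050578; chromosome 9, 7272514 to 7283331, plus strand, 10 merged exons) is the main interstitial collagenase of mice. Controls 1315, 1316, 1320 and 1321 held 5.52, 7.98, 5.35 and 6.84 CPM of it, the third from 2 reads. Adjacent tissue held 6.29, 1.42, 8.81 and 8.22 CPM of Mmp13 in mice 1349, 1323, 1322 and 1319, and tumors held 123, 142, 145 and 129 CPM. Its highest tumor value was 1.19 times its lowest, the smallest such ratio of the 10 members, the adjacent tissue of mouse 1323 was the lowest library, and the other adjacent and control values overlapped. Mmp13 exceeded adjacent tissue by 4.44 ± 0.43 log2 in tumors (edgeR adjusted p = 1.95e-05) and controls by 4.33 ± 0.45 (edgeR adjusted p = 1.62e-05). Adjacent minus control was -0.11 ± 0.40 (edgeR adjusted p = 0.930), and it was 0.22 without the adjacent tissue of mouse 1323.

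Mmp12 (ENSMUSG00000049723; chromosome 9, 7344381 to 7369499, plus strand, 11 merged exons) encodes macrophage elastase. It shares 157 exon bases with Mmp1b on the opposite strand, a gene with at most 6 reads in any tissue library, against 722 to 3700 reads of Mmp12 in tumors. Control tissue had 2.48, 2.79, 0 and 2.22 CPM in mice 1315, 1316, 1320 and 1321, and adjacent tissue had 2.51, 1.10, 1.66 and 2.85 CPM in mice 1349, 1323, 1322 and 1319. The tumors of these mice had 43.0, 101, 37.3 and 23.0 CPM. All tumors lay above a low band that the other 8 libraries shared. Tumor minus adjacent was 4.65 ± 0.49 log2 (edgeR adjusted p = 3.01e-05), tumor minus control was 4.40 ± 0.51 (edgeR adjusted p = 3.24e-05), and adjacent minus control was -0.25 ± 0.47 (edgeR adjusted p = 0.834).

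The membrane-type proteases Mmp14 and Mmp15 were the members expressed in every group. Mmp14 (ENSMUSG00000000957; chromosome 14, 54431612 to 54445364, plus strand, 11 merged exons) was at 29.1, 37.4, 13.4 and 33.5 CPM in controls 1315, 1316, 1320 and 1321, the third from 5 reads. Adjacent tissue held 54.0, 52.8, 57.4 and 61.3 CPM of Mmp14 in mice 1349, 1323, 1322 and 1319, and tumors held 349, 487, 435 and 290 CPM. The 3 groups did not overlap, and the adjacent libraries were nearly equal. Tumors exceeded adjacent tissue by 2.79 ± 0.24 log2 (edgeR adjusted p = 9.48e-06) and controls by 3.68 ± 0.25 (edgeR adjusted p = 1.86e-06). Adjacent minus control was 0.89 ± 0.23 and did not pass (edgeR adjusted p = 0.0742), while it passed in a fit of the adjacent and control libraries alone (0.93, edgeR adjusted p = 0.0447) and by DESeq2 (0.89, adjusted p = 0.00833).

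Mmp15 (ENSMUSG00000031790; chromosome 8, 95352268 to 95375080, plus strand, 10 merged exons) varied least. Controls 1315, 1316, 1320 and 1321 had 78.0, 35.7, 82.9 and 54.4 CPM, the third from 31 reads. Adjacent tissue had 63.2, 53.3, 83.9 and 78.3 CPM of Mmp15 in mice 1349, 1323, 1322 and 1319, and their tumors had 81.5, 110, 110 and 95.5 CPM. Tumor libraries were at the upper end, but their range overlapped those of adjacent tissue and controls. The tumor minus adjacent value of 0.51 ± 0.24 log2 did not pass (edgeR adjusted p = 0.0971), the tumor minus control value of 0.70 ± 0.25 did (edgeR adjusted p = 0.0280), and adjacent minus control was 0.20 ± 0.25 (edgeR adjusted p = 0.727). The tumor minus control call was lost without tumor 1323, tumor 1322, control 1316 or control 1321, with adjusted p of 0.0551 to 0.0858 by edgeR, and without control 1316 the tumor minus adjacent value passed (0.50, edgeR adjusted p = 0.0485).

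Timp1 (ENSMUSG00000001131; chromosome X, 20870166 to 20874735, plus strand, 6 merged exons) lies within Syn1, which runs on the opposite strand, and shares 0 exon bases with it. Its reads in control tissue were 14, 21, 0 and 19 in mice 1315, 1316, 1320 and 1321 (0.358, 0.901, 0 and 0.593 CPM). Adjacent tissue had 3.64, 4.82, 11.1 and 24.2 CPM of Timp1 in mice 1349, 1323, 1322 and 1319, and tumors had 119, 336, 52.4 and 87.2 CPM. Control, adjacent and tumor values formed 3 steps without overlap. The 0 of control 1320 allows up to 7.47 CPM before scaling factors, however, above the adjacent values of mice 1349 and 1323. The tumor minus control difference of 7.96 ± 0.94 log2 was the largest of all members (edgeR adjusted p = 3.83e-05), and tumor minus adjacent was 3.76 ± 0.69 (edgeR adjusted p = 0.000994).

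Leaving out the tumor of mouse 1323 gave a tumor minus adjacent value of 2.98 for Timp1 (edgeR adjusted p = 0.00204) and a tumor minus control value of 7.18 (edgeR adjusted p = 4.65e-05). Adjacent tissue exceeded controls by 4.198 ± 0.84 log2 (edgeR adjusted p = 0.0381). That call was lost in 7 of 12 removals of 1 library, among them each of the 4 controls, with log2 values of 3.46 to 4.54 and adjusted p of 0.0219 to 0.173 by edgeR. For Timp1, Mmp8 and Mmp9 the 4 adjacent libraries stayed above the 3 deeper controls, whose highest values were 0.901, 0.179 and 4.12 CPM.

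The widest differences were in mouse 1323. It had the highest tumor value of 7 members and the lowest adjacent value of 9 members (plot of tumor minus adjacent by mouse). Its tumor minus adjacent difference was 5.70 log2 for Mmp2, where the other 3 mice had 1.42 to 2.29, and 6.10 for Timp1, where they had 1.85 to 5.001. Mmp14 was the most even of the called members, with 2.24 to 3.20 in the 4 mice. With both libraries of mouse 1323 left out, Mmp2 was higher in tumors by 2.09 (edgeR adjusted p = 0.000552), Mmp3 by 4.33 (edgeR adjusted p = 1.71e-05), Timp1 by 2.73 (edgeR adjusted p = 0.00572), Mmp12 by 3.89 (edgeR adjusted p = 3.86e-05) and Mmp9 by 1.26 (edgeR adjusted p = 0.0254), and Mmp8 at 1.09 did not pass (edgeR adjusted p = 0.261).

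**Figure D3:**
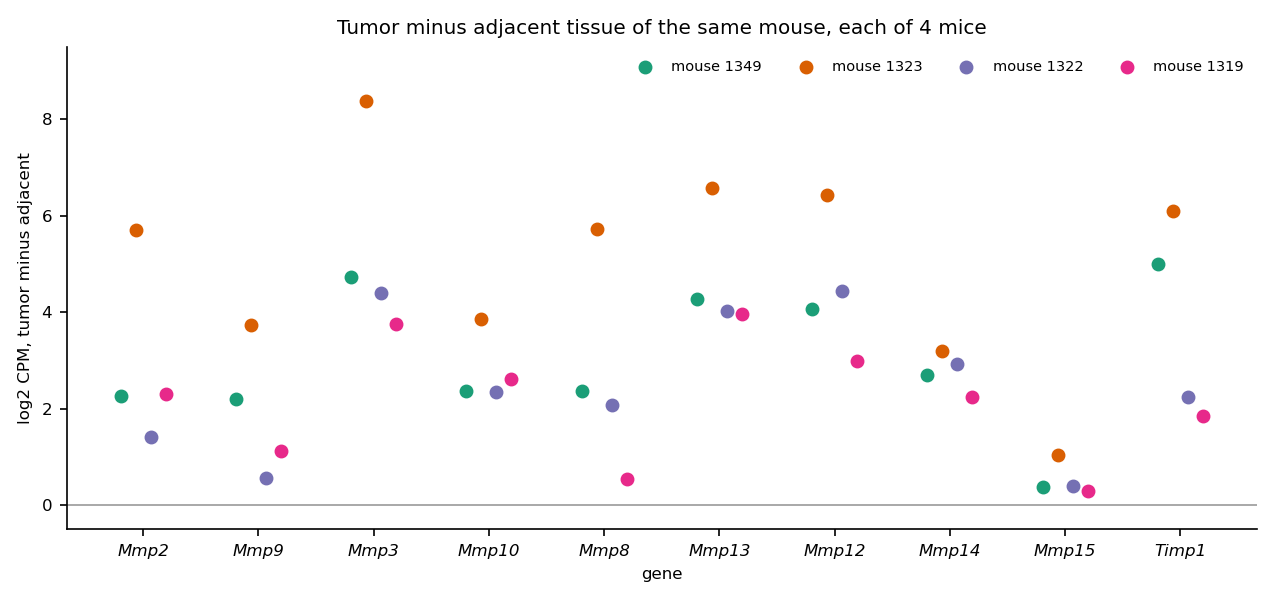
Tumor minus adjacent difference in log2 CPM (vertical axis) of each gene (horizontal axis) in each of 4 mice, one colour per mouse. All 40 points lie above 0, from 0.29 for Mmp15 to 8.39 for Mmp3, and mouse 1323 is the highest point for every gene.

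Markers of several cell types differed between these groups in the tissue libraries, some being higher and some lower in tumors. Neutrophil markers (9 genes, of which Elane was not tested) summed to 0 to 4.63 CPM in controls, 43.8 to 192 CPM in adjacent tissue and 188 to 1686 CPM in tumors. Of the 8 tested, 3 were called higher in adjacent tissue than in controls, namely S100a8, S100a9 and Retnlg, 7 were higher in tumors than in adjacent tissue and 8 were higher in tumors than in controls. Adjacent tissue of mouse 1319 had the highest neutrophil sum of its group, 192 CPM, and also the highest Timp1, Mmp8 and Mmp9 values, and the tumor of mouse 1323 had the highest tumor sum. Macrophage markers summed to 142 to 260 CPM in controls, 130 to 419 CPM in adjacent tissue and 439 to 1215 CPM in tumors, with 5 of 9 higher in tumors than in adjacent tissue, 7 of 9 higher in tumors than in controls and 0 of 9 called between adjacent tissue and controls.

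Fibroblast markers, among them collagen genes, summed to 591 to 842 CPM in controls, 441 to 977 CPM in adjacent tissue and 1616 to 10780 CPM in tumors, highest in the tumor of mouse 1323. Of 8 fibroblast markers, 4 were higher in tumors than in adjacent tissue (Col1a1, Col1a2, Col3a1 and Lum), and Pdgfra, at 67.2 against 66.7 CPM, was not called. Smooth muscle markers fell in 6 of 6 genes from adjacent tissue to tumors, with sums of 2822 to 4219 CPM against 282 to 809 CPM, and epithelial markers fell in 5 of 7 and rose in 1. Endothelial markers summed to 50.05 to 77.1 CPM in controls, 121 to 193 CPM in adjacent tissue and 114 to 304 CPM in tumors. T cell markers summed to 8.12 to 75.2 CPM in controls, 5.48 to 51.1 CPM in adjacent tissue and 12.2 to 18.5 CPM in tumors, and B and plasma cell markers to 324 to 946, 271 to 731 and 25.99 to 604 CPM. Acinar pancreas markers summed to 0 to 6.18 CPM in controls, 8.27 to 18.3 CPM in adjacent tissue and 46.4 to 242 CPM in tumors. Only 2 of these 8 markers passed the filter, of which 1 was called higher in tumors than in adjacent tissue, and Amy2a5 had 0 reads in all tumors. The part of these cell types in the metalloproteinase differences was not tested.

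**Figure D4:**
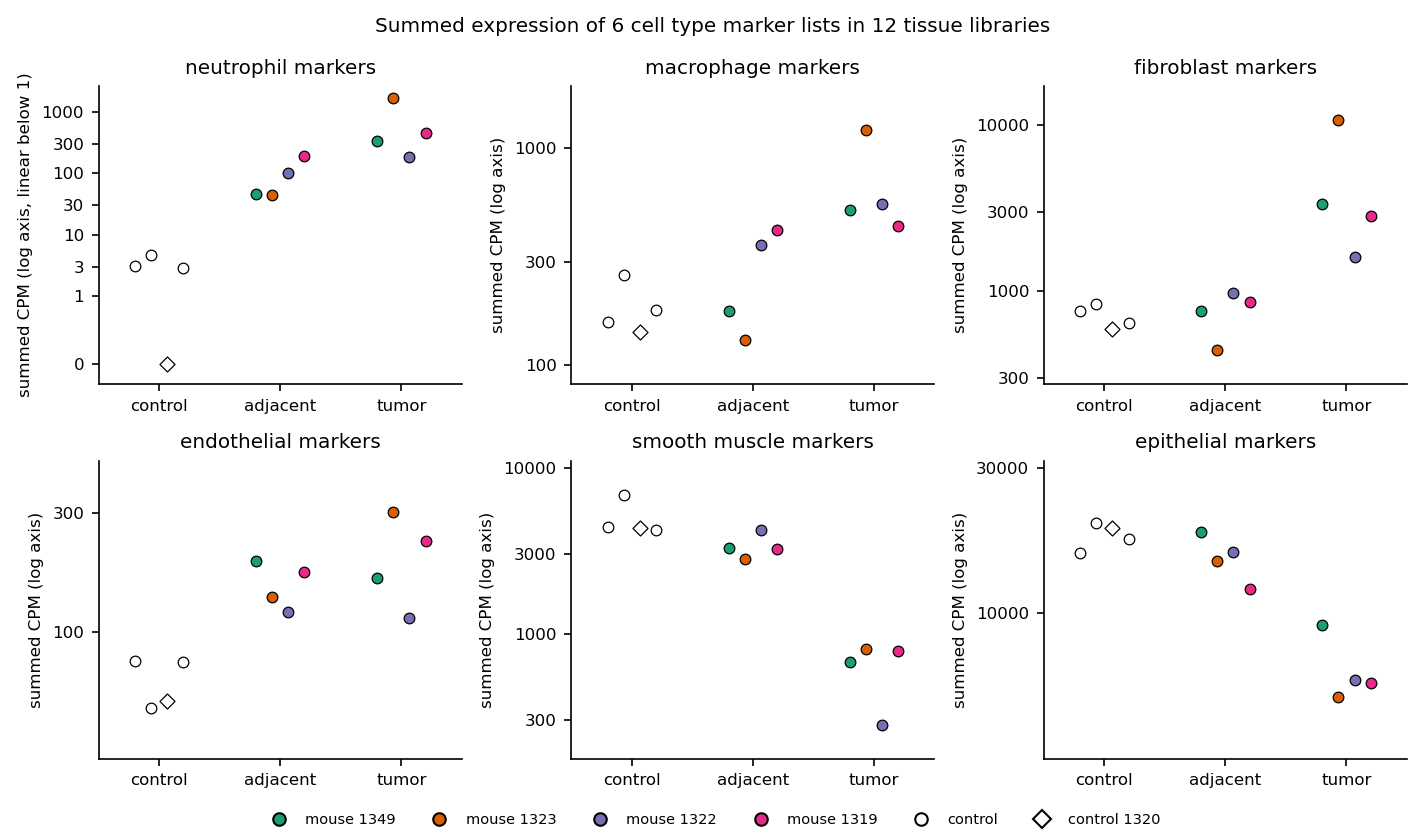
Summed CPM of 6 marker lists (log axis) in control, adjacent and tumor libraries, with one colour per H2B/p53dIEC mouse, white for controls and a diamond for control 1320. Neutrophil sums step up from controls over adjacent tissue to tumors, fibroblast sums are highest in the tumor of mouse 1323 at 10780 CPM, and smooth muscle sums are lowest in tumors.

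Per kilobase of merged exons, Timp1 had the highest mean of the members in tumors, at 167 ± 144 CPM per kb (SD, n = 4). That value was carried by the tumor of mouse 1323. The divisor counts all annotated exon bases, which can exceed the length of the transcript expressed, so genes are only roughly comparable. It was 7237 bases for Mmp12, against 1722 for Mmp10 and 2673 for Mmp13, and the place of Mmp12 depends on it. Mmp10 (99.0 ± 16.6), Mmp2 (95.4 ± 94.7), Mmp14 (65.5 ± 14.7), Mmp13 (50.4 ± 3.98) and Mmp3 (44.4 ± 38.7) followed on this scale, and Mmp15 (18.4 ± 2.51), Mmp9 (17.9 ± 9.53), Mmp8 (12.01 ± 9.67) and Mmp12 (7.06 ± 4.74) were lower. Without the tumor of mouse 1323, Mmp10 led at 101.6 ± 19.4 and Timp1 came next at 97.1 ± 37.4 CPM per kb (SD, n = 3), and Mmp2 was at 48.8 ± 20.2, Mmp3 at 25.2 ± 5.70 and Mmp8 at 7.49 ± 4.21. The SDs of neighbours in this order overlap in most places, so the order is a description. In control tissue the order was led by Mmp10 at 14.2 ± 3.08 and Mmp15 at 11.6 ± 4.06 CPM per kb, and Timp1, at 0.521 ± 0.428, was the eighth of the 10. Adjacent tissue had Timp1 in the third place at 12.3 ± 10.6 CPM per kb, behind Mmp10 at 15.5 ± 6.42 and Mmp15 at 12.9 ± 2.59, and in the fifth at 7.35 ± 4.53 (SD, n = 3) without the adjacent tissue of mouse 1319. In crypts and in control and H2BdIEC organoids Mmp15 led and Mmp14 came next, and in H2B/p53dIEC organoids Mmp14 led.

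Other genes of the family and its surroundings were taken as 5 lists. Of their 56 genes tested in tissue, 28 rose and 6 fell in tumors against adjacent tissue, or 60.7%. Among all genes, 23.0% were called higher and 24.0% lower in this comparison. Of 14 other metalloproteinase genes, 10 passed the filter in tissue, and 6 rose and 2 fell in tumors against adjacent tissue, with 0 called between adjacent tissue and controls. The epithelial matrilysin gene Mmp7, the last gene of the chromosome 9 cluster, was the most abundant of them, at 1638 CPM in tumors, 72.8 CPM in adjacent tissue and 34.7 CPM in controls (tumor minus adjacent 4.49 ± 0.45 log2, edgeR adjusted p = 2.06e-05). Mmp11, a stromal member, rose from 2.56 to 10.4 CPM (2.02 ± 0.32 log2, edgeR adjusted p = 0.000329). In the cluster, Mmp20, which lies before Mmp7, rose at a low level with 35 to 142 reads per tumor library, and Mmp1b and Mmp27 had at most 6 and 16 reads per tumor library.

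Of 5 other inhibitors of metalloproteinases, 2 rose and 0 fell in tumors against adjacent tissue, where 23.0% of all genes were called higher. The 2 were Timp2, by 1.76 ± 0.28 log2 (edgeR adjusted p = 0.000396), and the broad protease inhibitor A2m, by 4.35 ± 0.96 (edgeR adjusted p = 0.00309). Against controls Timp2, Timp3 and A2m rose, and Reck, a membrane-anchored inhibitor, fell by 1.07 ± 0.33 on the log2 scale (edgeR adjusted p = 0.0163). The plasminogen system, a protease cascade that activates metalloproteinase precursors, had 5 of 10 genes risen and 0 fallen in tumors against adjacent tissue. Its strongest were the inhibitor Serpine2 (8.42 to 235 CPM, 4.80 ± 0.35 log2, edgeR adjusted p = 3.93e-06) and the plasmin inhibitor Serpinf2 (1.63 to 45.5 CPM, 4.80 ± 0.76 log2, edgeR adjusted p = 0.000403). Of 13 ADAM and ADAMTS proteases, 7 rose and 0 fell, led by Adam8 (4.72 ± 0.54 log2, edgeR adjusted p = 5.38e-05) and Adam12 (3.66 ± 0.53 log2, edgeR adjusted p = 0.000207).

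Of 18 genes of metalloproteinase induction and activation, 8 rose and 4 fell in tumors against adjacent tissue. The PEA3-family factor genes Etv5 and Etv4 led, with 3.71 ± 0.38 log2 (edgeR adjusted p = 2.74e-05) and 4.80 ± 0.51 log2 (edgeR adjusted p = 3.51e-05). The 4 that fell were AP-1 genes, Fosl2, Fosb, Jund and Fos, where 24.0% of all genes were called lower, and the AP-1 gene Fosl1 rose. Against controls only Fosl2 of these 4 was called lower. Fos had 173 CPM in controls, 325 CPM in adjacent tissue and 98.4 CPM in tumors, and its tumor minus control value of -0.81 ± 0.61 log2 did not pass (edgeR adjusted p = 0.278). The median log2 fold changes of the 5 lists in this comparison were 1.17, 0.32, 2.10, 0.74 and 0.71 in the order given, beside 3.04 for the 10 members. In adjacent tissue against controls 0 genes of the 5 lists were called, where 189 of all 17666 genes tested were called.

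Genes most like each member over the 12 tissue libraries were taken among 9920 expressed protein-coding genes, by Pearson's r of log2 CPM. The 12 points form 3 groups of different level, so r carries the group differences as well as the spread within groups, and no p is given. Mmp8 was most like Chil3 (r = 0.983), S100a8 (0.976) and S100a9 (0.973), all myeloid products. Mmp2 was most like the basement membrane collagen genes Col4a2 (0.988) and Col4a1 (0.982), and then Igfbp7 (0.982). Mmp10 and Mmp13 both had Cd44, a surface receptor for hyaluronan, among their 3 genes (0.989 and 0.987), and Mmp3 had Sh3pxd2b first (0.994), an adaptor gene of invasive membrane protrusions.

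Timp1 was most like Fcgr2b (0.988) and Icam1 (0.980), both genes of immune cells or inflamed endothelium. The first genes for the others were Lrrc8a for Mmp9 (0.975), Mvb12b for Mmp12 (0.972), Ubtd1 for Mmp14 (0.990) and Sardh for Mmp15 (0.919). Without control 1320, 10 of the 30 pairs (3 for each member) were again among the first 3. Of the pairs printed here, those of Mmp8 with S100a8 and S100a9, Mmp2 with Igfbp7, Mmp9 with Lrrc8a, Mmp12 with Mvb12b and Mmp14 with Ubtd1 were not. Among the members themselves, Mmp10 and Mmp13 had the highest r (0.978), followed by Mmp8 and Timp1 (0.968) and by Mmp3 and Mmp10 (0.964), and Mmp9 and Mmp15 had the lowest (0.389).

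In crypts, neither Mmp14 nor Mmp15 passed the test between H2BdIEC and control mice, and 10.0% of all genes were called in that comparison. Mmp14 had 17.4, 21.3, 17.7 and 15.1 CPM in the 4 controls and 23.7, 15.4, 15.0 and 16.6 CPM in the 4 H2BdIEC libraries, which overlap. Its difference was -0.02 ± 0.16 log2, with an approximate 95% interval of -0.33 to 0.30 (edgeR adjusted p = 0.960). Mmp15 had 34.6, 38.9, 43.8 and 57.9 CPM in controls and 56.4, 58.4, 28.7 and 47.3 CPM in H2BdIEC crypts, a difference of 0.12 ± 0.23 with an interval of -0.32 to 0.57 (edgeR adjusted p = 0.757). Paneth cell markers, of which 5 of 6 fell in H2BdIEC crypts, summed to 4370 to 11770 CPM in controls and 1939 to 3100 CPM in H2BdIEC, and neutrophil markers summed to at most 0.379 CPM in any crypt library. Acinar pancreas markers summed to 4.45 to 7.95 CPM in crypt controls and to 18.8, 366, 23.1 and 20.3 CPM in the 4 H2BdIEC libraries, with 0 of 5 tested markers called. The part of these markers in the crypt values was not tested.

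Of the 33 list genes tested in crypts, 4 were called, or 12.1%, near the 10.0% of all genes. Etv4 rose from 0.693 to 3.01 CPM (2.12 ± 0.30 log2, edgeR adjusted p = 0.00364) and Mmp23 from 0.795 to 1.86 CPM (1.23 ± 0.28, edgeR adjusted p = 0.0222). The tissue kallikrein gene Klk1 fell by 1.11 ± 0.27 on the log2 scale (edgeR adjusted p = 0.0323), and Mmp20, at 1.07 CPM in controls and 0.395 CPM in H2BdIEC, fell by 1.44 ± 0.38 (edgeR adjusted p = 0.0375).

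In organoids the membrane-type genes moved in opposite directions in the H2B/p53dIEC genotype (plot of membrane-type genes). Mmp14 had 59.8, 56.2 and 64.7 CPM in control organoids A, B and C, 59.8, 65.0 and 69.4 CPM in H2BdIEC organoids A, B and C, and 86.1, 81.4 and 82.7 CPM in H2B/p53dIEC organoids 1, 2 and 3. The H2B/p53dIEC values lay above all others, and control and H2BdIEC values overlapped. Mmp14 was higher in H2B/p53dIEC than in control organoids by 0.47 ± 0.08 log2 (edgeR adjusted p = 0.000553), where 33.3% of all genes were called in either direction, and higher than in H2BdIEC organoids by 0.36 ± 0.08 (edgeR adjusted p = 0.00456), where 29.3% were called. H2BdIEC minus control was 0.11 ± 0.08 with an interval of -0.04 to 0.26 (edgeR adjusted p = 0.452), where 4.06% were called.

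Mmp15 had 71.0, 74.5 and 71.3 CPM in control organoids A, B and C, 57.4, 71.9 and 71.9 CPM in H2BdIEC organoids A, B and C, and 58.9, 56.9 and 57.3 CPM in H2B/p53dIEC organoids 1, 2 and 3. All H2B/p53dIEC libraries lay below all organoid controls, and the shallow H2BdIEC library A, which had the smallest total of the organoids, lay among the H2B/p53dIEC values. Mmp15 fell by 0.33 ± 0.08 on the log2 scale in H2B/p53dIEC against control organoids (edgeR adjusted p = 0.00932). Against H2BdIEC the difference of -0.23 ± 0.08 did not pass (edgeR adjusted p = 0.0577), and without H2BdIEC library A it was -0.32 and passed (edgeR adjusted p = 0.000561). H2BdIEC minus control was -0.10 ± 0.08 with an interval of -0.26 to 0.07 (edgeR adjusted p = 0.555). Titles of the control and H2BdIEC organoids share a prefix that H2B/p53dIEC titles lack, and whether the cultures were handled separately is not given, so genotype and such a difference cannot be told apart.

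**Figure D5:**
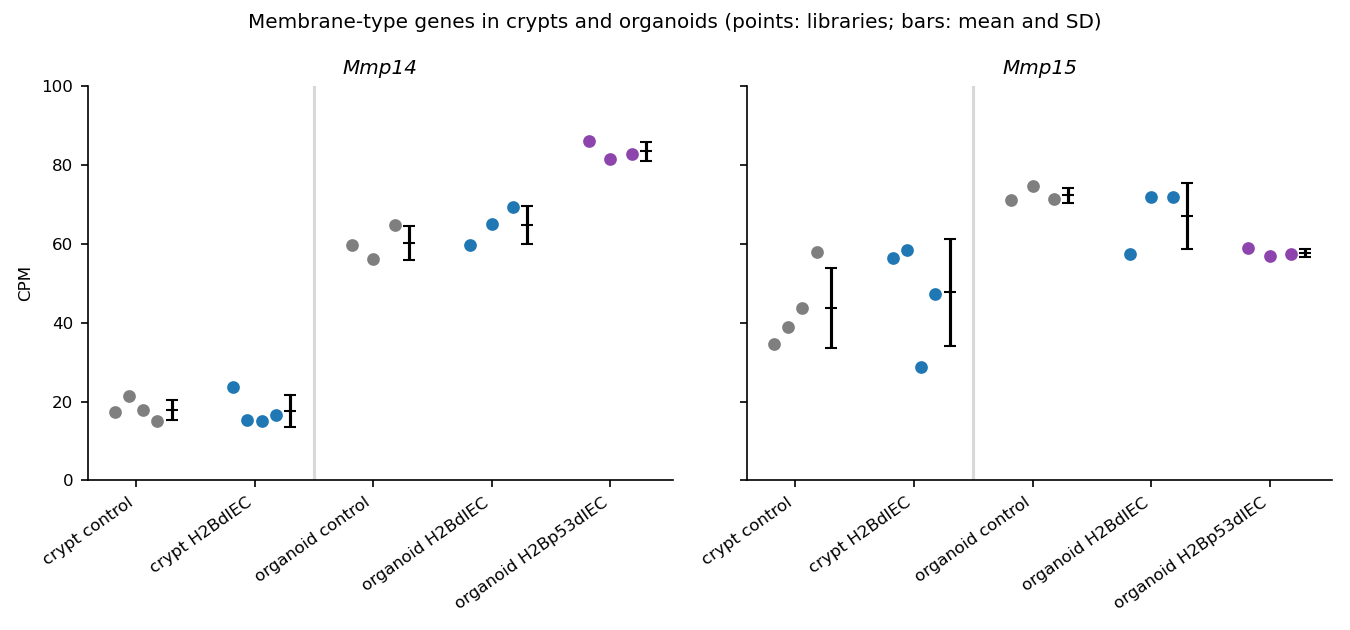
Expression of Mmp14 and Mmp15 in CPM on a linear axis from 0, in crypt and organoid libraries. Points are libraries and the bars beside them give the mean and SD (n = 4 in crypts, n = 3 in organoids). In H2B/p53dIEC organoids Mmp14 lies at 81.4 to 86.1 CPM, above all other points, and Mmp15 at 56.9 to 58.9 CPM, below all organoid controls.

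Group means in control and H2B/p53dIEC organoids were 60.2 ± 4.26 and 83.4 ± 2.44 CPM for Mmp14, and 72.3 ± 1.94 and 57.7 ± 1.07 CPM for Mmp15 (SD, n = 3). Neutrophil markers summed to at most 1.24 CPM in any organoid library. Macrophage markers summed to 7.62 to 9.36 CPM in control and H2BdIEC organoids and 10.7 to 12.2 CPM in H2B/p53dIEC organoids; Adgre1, C1qb and Fcgr1 had 0 reads in all libraries, and 1 of the 4 tested, Cd14, was higher in H2B/p53dIEC than in control organoids. Fibroblast markers summed to 88.9 to 111 CPM in control and H2BdIEC organoids and 128 to 137 CPM in H2B/p53dIEC organoids. Of the 2 fibroblast markers tested, only Fbln1 was called higher in H2B/p53dIEC than in control organoids (99.96 to 131 CPM, 0.39 ± 0.09 log2, edgeR adjusted p = 0.00669). Fbln1 made up most of these sums. Dcn had 0 reads in all organoid libraries, and Lum had 0 in control and H2BdIEC organoids. Col3a1 had 0 reads in H2BdIEC and H2B/p53dIEC organoids, and Col1a2 had 0 in H2B/p53dIEC organoids. Endothelial sums were 0.532 to 1.49 CPM in control and H2BdIEC organoids and 1.80 to 3.20 CPM in H2B/p53dIEC organoids. The part of these markers in the Mmp14 difference was not tested. The effect of H2BdIEC against control was compared between crypts and organoids by edgeR, and neither gene passed: the difference of effects was -0.11 ± 0.21 log2 for Mmp14 (interval -0.53 to 0.31, adjusted p = 0.893) and 0.24 ± 0.30 for Mmp15 (-0.34 to 0.83, adjusted p = 0.734), where 4.02% of all genes were called.

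Of the 36 list genes tested in organoids, 4 fell and 0 rose in H2BdIEC against control, or 11.1% against 4.06% of all genes. Among them Mmp7 fell from 29.9 to 14.8 CPM (by 1.02 ± 0.11 on the log2 scale, edgeR adjusted p = 0.000184). Bsg, the surface inducer of metalloproteinases, fell by 0.41 ± 0.08 (edgeR adjusted p = 0.0125) and Etv5 by 0.39 ± 0.10 (edgeR adjusted p = 0.04999).

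In H2B/p53dIEC against control organoids 10 list genes rose and 7 fell, or 47.2% of those tested against 33.3% of all genes. Mmp7 (-0.79 ± 0.10 log2) and the shedding protease gene Adam17 (-0.30 ± 0.08) fell (edgeR adjusted p = 0.000114 and 0.0148), as did the AP-1 genes Junb (-1.35 ± 0.14) and Fosl2 (-0.66 ± 0.07; edgeR adjusted p = 2.57e-05 and 2.65e-05). Mmp11 (0.81 ± 0.27), Serpinf2 (1.54 ± 0.15), Timp2 (1.40 ± 0.19) and Adamts1 (2.43 ± 0.41) rose (edgeR adjusted p from 1.25e-05 to 0.0338). In H2B/p53dIEC against H2BdIEC organoids 10 list genes rose and 5 fell, or 41.7% against 29.3% of all genes. Mmp11 (0.92 ± 0.30), Timp2 (1.45 ± 0.21), Timp3 (0.41 ± 0.14), Serpinf2 (2.05 ± 0.17), Klk1 (0.84 ± 0.15), Adamts1 (3.40 ± 0.55) and Ets2 (0.59 ± 0.06) rose, and Adam17 (-0.47 ± 0.09) and Fosl2 (-0.52 ± 0.07) fell (edgeR adjusted p up to 0.0454).

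For Mmp14 the mean fell from tumors (390 CPM) over H2B/p53dIEC organoids (83.4), H2BdIEC organoids (64.7), control organoids (60.2), adjacent tissue (56.3), control tissue (28.3) and control crypts (17.9) to H2BdIEC crypts (17.7), and neighbours overlapped except tumors, H2B/p53dIEC organoids and the step from adjacent to control tissue. For Mmp15 the means ran from 99.1 CPM in tumors to 43.8 CPM in control crypts, and apart from tumors all neighbours in that order overlapped. Levels in crypts, tissue and organoids were scaled within each set, and the order of these 2 genes below tumors shifts when all 29 libraries are scaled together.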

How the data were processed

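RNA from crypts, tissue and organoids was made into stranded poly(A) libraries from 500 ng, per the labels' protocols. The deposited values are raw gene counts per library, made by the authors with TopHat2 2.0.14, HTSeq (version not given), cutadapt 1.5 and 1.9 and Trimmomatic 0.36 on GRCm38, per the submitters' processing notes. The settings, the annotation and the strand option are not given in the sources used here. Summary lines that name no gene, which held 49.9% to 59.5% of the summed counts in crypt files, were left out.

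Counts were fitted separately for crypts, tissue and organoids with edgeR 4.0.16 (quasi-likelihood, TMM, filterByExpr) in R 4.3.3, all groups of a set sharing one spread, and the Benjamini-Hochberg adjusted p took in every gene tested, with a threshold of 0.05. The test was checked only on simulated counts with a single fixed spread, so the check does not cover libraries that spread more. The SE is the log2 fold change divided by the square root of F, and intervals are 1.96 SE. Log2 CPM used a prior count of 2. The floor of a count of 0 is 3 reads and covers counting error only. Symbols came from GENCODE (47310 of 47729 crypt, 49326 of 49585 tissue and 52403 of 52550 organoid identifiers matched). No replicate files were identical. Tumor and adjacent libraries share a mouse number in the labels, and deviations of these pairs correlated at 0.17, -0.18, 0.19 and 0.03. The main fit held group only, so tumor minus adjacent p-values are unpaired except where a mouse block is named. Alternatives were DESeq2 1.42.0, other scalings, no filter, 2 groups only, a mouse block and leaving out each library; 3 more, which leave out mouse 1323, control 1320 with adjacent 1323, or 1 library from levels per kb, were chosen after seeing the data. All 10 members were named, and the called list genes come from those with the 2 smallest p per list and comparison, not all of which are printed; Timp3, Reck, Fosb, Jund, Fos, Fosl1 and Mmp20 in tissue, and cluster genes, were named after their values were seen. For likeness the 3 protein-coding genes with the highest r were taken per member, among genes with a mean log2 CPM of at least 3. The members and lists were chosen with earlier results of these data known. One gene of the lists is counted in them and not reported here by name.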

Additional observations from a re-analysis of the deposited data

Results flagged for a closer look

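Of 47 groups of 4 libraries tested for a library far from the other 3, 4 held one. The rate of about 1 in 20 groups that chance gives under this rule assumes normally distributed values. It does not hold for groups near 0 reads, so the 4 cannot be read against it. Mmp3 in the tumor of mouse 1323 was at 183.6 CPM (6731 reads), where the other tumors had 36.6 to 56.7 CPM. Mmp8 in the adjacent tissue of mouse 1319 was at 20.53 CPM (447 reads), where the other adjacent libraries had 1.10 to 2.95 CPM. Mmp9 in crypt control 2 was at 0.9347 CPM from 26 reads. Timp1 in crypt control 1 was at 0.03503 CPM from 1 read, with 0 reads in the other 3 crypt controls.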

How the results depend on the processing

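Adjacent against control tissue was the comparison least steady in its calls: 189 genes were called, against 323 without both libraries of mouse 1323, 33 without control 1320 and adjacent 1323, 929 by DESeq2, 441 with only the 2 groups, and 0 to 370 in removals of 1 library. The members called higher there were 4 by DESeq2, 4 with only the 2 groups, 0 without control 1320 and adjacent 1323, 0 with no filter and 0 to 3 in removals. Signs turned only where the value was near 0: Mmp14 in crypts (-0.19 to 0.0784 in removals), Mmp13 (-0.33 to 0.22 in removals, 0.22 without mouse 1323, 0.20 without control 1320 and adjacent 1323) and Mmp15 (-0.0205 to 0.36 in removals), the last 2 in adjacent against control. In crypts 1464 genes were called, 2440 by DESeq2 and 481 to 1839 in removals. In organoids H2BdIEC against control gave 637 genes, 1494 with no filter, 242 with only the 2 groups and 286 to 1185 in removals. H2B/p53dIEC against H2BdIEC gave 4601 genes and 2982 to 5483 in removals, with 0 to 1 members lower. Against control the members called higher were 1, and 2 with no filter, the added one being Mmp13. The difference of effects gave 690 genes, 1338 by DESeq2 and 218 to 1053 in removals. The mouse block changed no other call than that of Mmp8 (2.499, edgeR adjusted p = 0.0745), leaving 8 members called. In organoids a block on the replicate letter gave 167 genes for H2BdIEC against control, and letters correlated at 0.05, -0.37 and 0.35. With all 29 libraries scaled together Mmp14 means were 23.2 and 22.9 CPM in control and H2BdIEC crypts and 50.4, 52.8 and 69.4 CPM in control, H2BdIEC and H2B/p53dIEC organoids, and Mmp15 means 56.8, 61.7, 60.6, 54.8 and 48.0 CPM. Other scalings moved the median of all genes in tumor against control from 0.07 to 0.15, and no filter moved it to 0.16. The cause of these shifts was not tested. Depth limits control 1320 and all counts under 3 reads.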
